A study of Mus musculus with 12 samples.

Results

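The heat shock and chaperonin genes of the mouse oocyte were followed through meiotic maturation in the presence and absence of ALKBH5, an RNA demethylase that removes N6-methyladenosine (m6A). Members were the gene models whose symbol begins with Hspa, Hspb, Hspd, Hspe, Hsph, Hsp90, Dnaja, Dnajb or Dnajc, together with Cct2 to Cct5, Cct7, Cct8 and Tcp1, without pseudogenes. This rule took 81 of the 56691 genes in the count table, namely 3 HSP90 genes, 14 genes of the HSP70 and HSP110 families, 2 genes of the mitochondrial chaperonin, 8 small heat shock protein genes, 2 genes named for binding to a heat shock protein, 45 J-domain genes (4 Dnaja, 13 Dnajb and 28 Dnajc) and 7 subunits of the cytosolic chaperonin. Wild-type (WT) and Alkbh5 knockout (KO, Alkbh5-/-) oocytes were sequenced at the germinal vesicle (GV), germinal vesicle breakdown (GVBD) and metaphase II (MII) stages. Each of these 6 groups had 2 libraries. The mice were on a C57BL/6 background. The KO line was a constitutive null made by genome editing of the first exon, so the cells around the oocyte lacked the gene as well. Oocytes came from 3-week-old females primed with PMSG, were matured in M16 medium and were pooled before lysis, with ERCC spike-in RNA added to each pool. KO oocytes labelled GVBD or MII were collected by time in culture and could include oocytes that had not reached that stage. In the paper, most KO oocytes in culture remained at GV, and far fewer than in WT extruded a first polar body. Alkbh5 itself had 5355 to 10181 counts in WT libraries and 54 to 143 counts in KO libraries.

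Heat shock proteins are molecular chaperones. HSP70 proteins bind stretches of unfolded protein in cycles driven by ATP, J-domain proteins (the DNAJ families) bring them their clients and speed up ATP hydrolysis, and HSP110 proteins exchange the nucleotide. HSP90 acts later, on kinases, hormone receptors and other partly folded clients, with the help of cochaperones such as p23 and CDC37. The cytosolic chaperonin TRiC is a double ring of 8 different subunits that folds actin and tubulin, and in the mitochondrial matrix HSPD1 and its lid HSPE1 do comparable work. Small heat shock proteins hold unfolded proteins without ATP. A fully grown oocyte is nearly silent in transcription from GV to MII, so its mRNA levels in that interval are set mostly by the decay of stored mRNA, and heat-induced transcription through heat shock factors is weak in it.

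Heat shock factors bind heat shock elements, inverted repeats of the unit GAA. The promoters of 4 members are shown because they carry this element and because these genes recur below as stress-inducible or highly expressed members. Sequences are from RefSeq, build GRCm38.p6, and run from 150 bases before to 30 bases after the annotated start in the direction of the gene. Capitals mark the 3-unit element (GAANNTTCNNGAA or TTCNNGAANNTTC) in Hspe1 and Hsph1 and the 2-unit element (GAANNTTC or TTCNNGAA) in Hspb1 and Hspa1b, each pair of strings covering both strands. Hspe1 is at chr1:55087998-55088177 on the plus strand, Hsph1 at chr5:149636286-149636465 on the minus strand, Hspb1 at chr5:135887769-135887948 on the plus strand and Hspa1b at chr17:34959209-34959388 on the minus strand.
Hspe1: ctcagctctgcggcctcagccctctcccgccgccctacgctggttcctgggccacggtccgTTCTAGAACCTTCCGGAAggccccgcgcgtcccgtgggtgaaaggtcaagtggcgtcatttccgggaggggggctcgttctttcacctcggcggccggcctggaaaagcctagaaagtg
Hsph1: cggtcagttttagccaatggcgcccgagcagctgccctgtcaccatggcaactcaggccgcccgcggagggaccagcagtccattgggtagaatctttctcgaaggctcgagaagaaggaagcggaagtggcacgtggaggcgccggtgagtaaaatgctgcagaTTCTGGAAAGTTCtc
Hspb1: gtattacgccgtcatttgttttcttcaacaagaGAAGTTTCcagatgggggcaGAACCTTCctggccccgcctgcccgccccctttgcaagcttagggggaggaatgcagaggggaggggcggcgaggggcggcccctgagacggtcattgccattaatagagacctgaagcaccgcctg
Hspa1b: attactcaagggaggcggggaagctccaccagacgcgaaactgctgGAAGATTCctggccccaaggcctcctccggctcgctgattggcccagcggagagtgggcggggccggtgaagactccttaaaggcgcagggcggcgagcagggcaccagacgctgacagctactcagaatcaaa
A promoter entry was matched for 66 of the 81 members. Within windows of 300 bases (250 before the start), the 3-unit element was present in 4 of these 66 genes (6.06%) and in 104 of 17491 coding genes (0.595%). The 4 genes were Dnajb6, Hspd1, Hspe1 and Hsph1. Hspd1 and Hspe1 lie on opposite strands and share 112 exon bases, and whether their matches are the same bases was not tested. The Hsph1 match lies after the annotated start. The 2-unit element, which lies inside the longer one, was present in 18 of 66 members (27.3%) and in 2749 coding genes (15.7%). A match describes the letters in the window and not the occupancy of a site.

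Libraries held 28557742 to 40247810 counts. Spike-in counts gave 98.9 to 128 endogenous counts per ERCC count in the 4 GV libraries, 73.3 and 47.0 for WT at MII and 87.9 and 54.7 for KO at MII, so replicates at MII differed in the scaling that all levels below share. Unless another scale is named, a level is a count divided by the library's relative ERCC total, per kilobase of the principal transcript, and a difference is a log2 fold change on the same spike-in scale with its standard error (SE). Fewer oocytes in a pool and less RNA per oocyte cannot be told apart in bulk libraries. In the fits, a gene was called when the adjusted p of edgeR's quasi-likelihood test (Benjamini-Hochberg over all genes tested) was below 0.05 and the difference was at least 1 log2 unit. All adjusted p below come from that test. Oocyte marker genes summed to 710642 to 1403267 counts per library, against 5358 to 15454 for cumulus and granulosa markers. Blood cell markers varied most, from 16 to 1072 summed counts in WT GV replicate 1, both WT MII, both KO GVBD and the second KO MII library to between 19806 and 111729 in the other 6, and their part in the results was not tested.

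Most of the chaperone network was present in the oocyte. Of the 81 members, 63 had at least 1 count in every library, 49 had at least 100 counts in every library and 37 averaged at least 1000 counts. Dnajb7, Dnajb8, Hspa1l and Hspb9 had 0 counts in all 12 libraries, where a count of 0 allows up to 3 counts per library. With Dnajc22, Hspa12b and Hspb2, which reached at most 22 counts, they made up the 7 members that passed the filter on low counts in no comparison.

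Hsp90aa1, the stress-inducible cytosolic HSP90, was the most abundant member at a level of 72350 ± 5910 (SD, n = 2) in WT GV oocytes. Hspe1, the lid of the mitochondrial chaperonin, followed at 29620 ± 5820, and Dnajc8, a J-domain protein linked to splicing, at 25900 ± 5260. Hspe1 and Dnajc8 did not differ beyond their spread. Dnajb4 (10720 ± 38.5) and Hspa8, the constitutive cytosolic HSP70 (10390 ± 132), came next. The remaining places among the highest 10 were held by Cct5 (8306 ± 226), Cct3 (6657 ± 1060), Cct2 (4026 ± 626), Dnajc2 (3771 ± 418) and Dnajb6 (3405 ± 451). The order of Cct2, Dnajc2 and Dnajb6 lay within the spread of their 2 libraries. When all annotated exons replaced the principal transcript as the length, Hsp90ab1 and Hsp90b1 took the 8th and 10th places and Dnajc2 and Dnajb6 left the highest 10. The textbook inducible HSP70 genes were at the other end. Hspa1a had 0 to 29 counts per library and Hspa1b had 0 to 141.

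**Figure D1:**
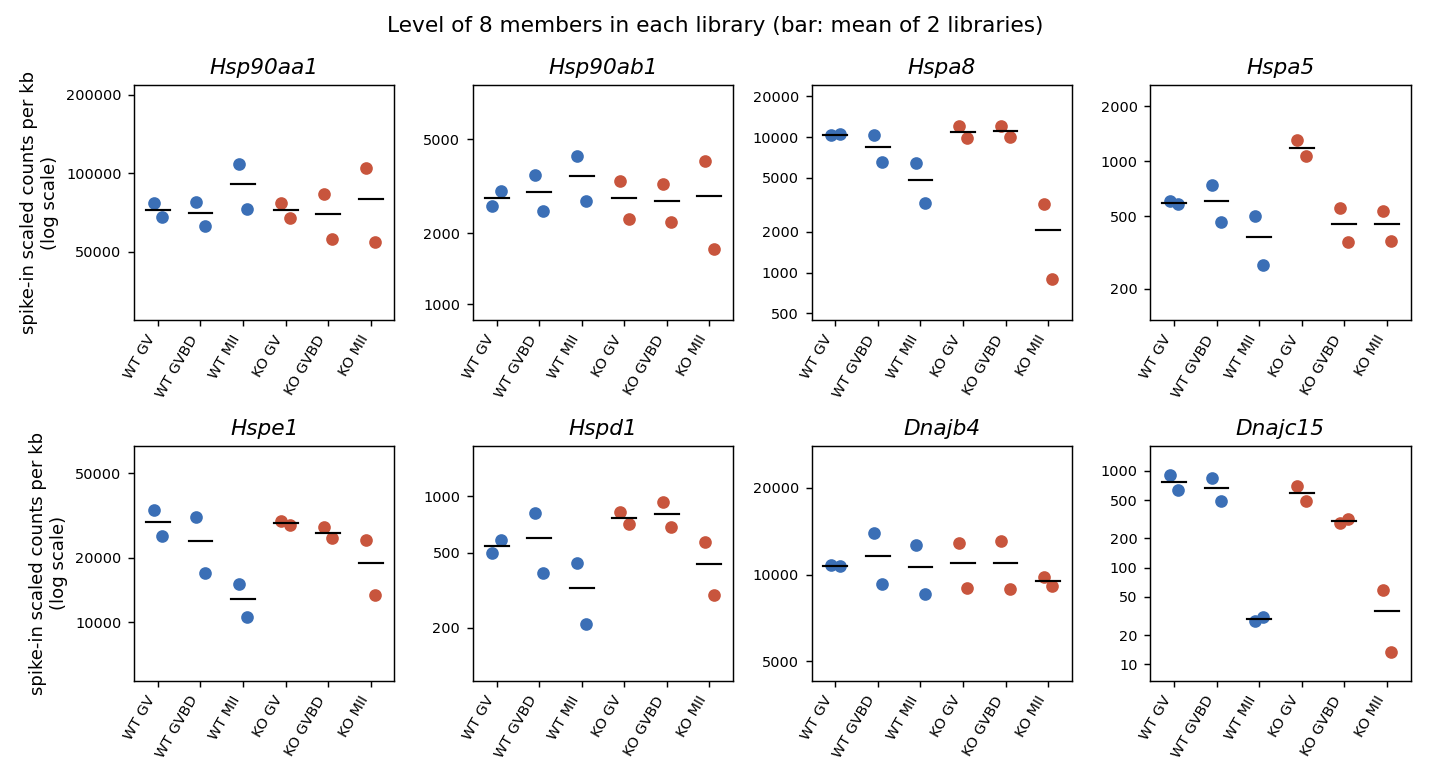
Level of 8 members in each of the 12 libraries, as spike-in scaled counts per kilobase on a log axis whose range differs between panels (dots, libraries; bars, mean of 2; blue, WT; red, KO). The Hsp90aa1 means at MII (90830 in WT, 79800 in KO) lie near the WT GV mean of 72350, whereas Dnajc15 lies far below it in both genotypes and Hspa8 lies lowest in KO MII.

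The members held a larger share of the oocyte's mRNA at MII than at GV. They took 1.22 ± 0.0424% of the endogenous WT counts at GV, 1.25 ± 0.0495% at GVBD and 1.90 ± 0.0141% at MII, while KO shares were 1.12 ± 0.0141%, 1.19 ± 0.0778% and 1.41 ± 0.177% (SD, n = 2 each). The 2 WT MII libraries, at 1.89% and 1.91%, lay above all other libraries, and the KO MII libraries were at 1.53% and 1.28%. Hsp90aa1 accounted for most of the MII share. This gene alone made up 47.2 ± 0.212% of member counts in WT GV and 64.9 ± 1.27% in WT MII, against 43.8 ± 0.778% and 63.5 ± 0.354% for KO. Without Hsp90aa1, the members took 0.642 ± 0.0212% of endogenous counts in WT GV and 0.666 ± 0.0184% in WT MII, a difference within the replicate spread, and 0.629 ± 0.0198% and 0.514 ± 0.0714% in KO. No exact permutation test of 2 against 2 libraries can give a two-sided p below 0.333, so none was used for these shares.

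From GV to MII in WT oocytes, 28 of the 72 members tested fell and none rose. This was 38.9% of the members tested, where 30.9% of all 18816 genes tested were called and 30.5% were called lower. The median difference of the members was -1.11 log2 units against -1.06 for all genes and 34 of the 72 members lay above the median of all genes. Leaving out 1 library changed the count to 9 (without WT GV replicate 1), 11 (without WT GV replicate 2), 39 (without WT MII replicate 1) or 20 (without WT MII replicate 2), while the share of all genes called moved to 14.4%, 14.3%, 26.1% and 14.3%. When libraries were scaled by TMM, which sets the bulk of genes near 0, the median of all genes was -0.14, and 23 members (31.9%) were called, 17 lower and 6 higher, where 24.7% of all genes were called, 16.2% lower and 8.47% higher. All 17 were among the 28 on the spike-in scale. The 11 that lost the call were Cct4, Cct5, Tcp1, Hsph1, Hspa8, Hspe1, Dnaja1, Dnaja2, Dnajb1, Dnajc4 and Dnajc5b. The 6 higher genes were Hsp90aa1, Hsp90ab1, Hspa14, Dnajc3, Dnajc8 and Dnajc21.

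**Figure D2:**
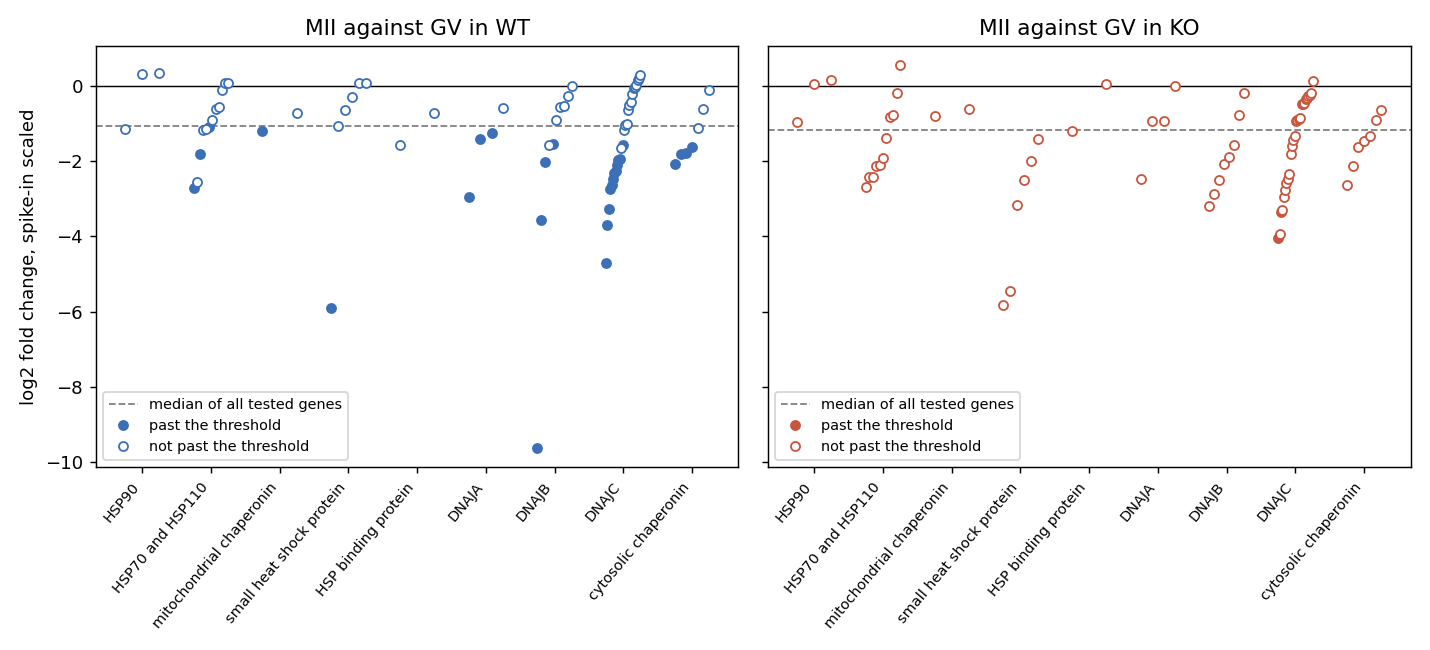
Log2 fold change from GV to MII of each tested member by class in WT (left) and KO (right), spike-in scaled; filled points passed the threshold, open points did not, and the dashed line is the median of all tested genes (-1.06 in WT, -1.17 in KO). The 28 filled points in WT and the 2 in KO all lie below 0, with Dnajb13 lowest in WT, where its value depends on the prior count because both MII libraries were at 0.

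The cytosolic HSP90 genes were not called from GV to MII in WT, while the median of all genes was lower. Hsp90aa1 had levels of 76530 and 68170 in WT GV and 108800 and 72840 in WT MII, and its difference was 0.33 ± 0.38 (adjusted p = 0.583). The lower MII library lay within the GV range, so the groups overlapped. Hsp90ab1, the constitutive cytosolic HSP90, had levels of 2606 and 3036 in GV and 4257 and 2733 in MII, which overlapped too (0.31 ± 0.47, adjusted p = 0.691). On the TMM scale their differences were 1.25 ± 0.21 (adjusted p = 0.00971) and 1.23 ± 0.17 (adjusted p = 0.00598). The 2 cytosolic genes kept one proportion throughout, with 22.0 to 32.0 times as much Hsp90aa1 as Hsp90ab1 mRNA per kilobase in all 12 libraries. Hsp90b1, the HSP90 of the endoplasmic reticulum, had levels of 2940 and 2525 in GV and 1662 and 800.8 in MII, without overlap, and missed the threshold at -1.15 ± 0.48 (adjusted p = 0.0503).

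Among the HSP70 and HSP110 genes, 3 of 12 tested fell, where 30.5% of all genes were called lower. Hspa4, an HSP110-type exchange factor, went from levels of 320.9 and 363.1 in WT GV to 64.9 and 38.2 in WT MII (-2.73 ± 0.54, adjusted p = 4.22e-06), and Hsph1, its stress-inducible relative with the 3-unit element printed above, from 622.3 and 541.9 to 223.6 and 104.1 (-1.83 ± 0.51, adjusted p = 0.00181). Groups did not overlap for either gene, and with TMM scaling Hsph1 lost its call at -0.97. Hspa4l, the third gene of this type, had levels of 102.0 and 102.4 in GV and 87.8 and 49.6 in MII (-0.57 ± 0.51, adjusted p = 0.441). The ratio of Hspa4l to Hspa4 mRNA per kilobase, which does not depend on library scaling, was 0.318 and 0.282 in the GV libraries and 1.35 and 1.30 in the MII libraries. Hspa8 fell 2.15-fold, from 10300 and 10480 to 6415 and 3263 (-1.10 ± 0.45, adjusted p = 0.0483). This call was close to the threshold and on the TMM scale the difference of Hspa8 was -0.22 (adjusted p = 0.435). Within libraries, the Hsp90aa1 to Hspa8 ratio per kilobase was 7.43 and 6.50 in WT GV and 17.0 and 22.3 in WT MII. Hspa9, the mitochondrial HSP70, had a difference of -1.15 ± 0.49 (adjusted p = 0.0601), Hspa5, the HSP70 of the endoplasmic reticulum, -0.62 ± 0.49 (adjusted p = 0.373), Hspa13 0.06 ± 0.54 (adjusted p = 0.954) and Hspa14 0.07 ± 0.50 (adjusted p = 0.947). Hspa2, a testis-enriched HSP70, had 12 to 109 counts in the WT libraries and was not called.

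In the mitochondrial chaperonin, the lid fell and the ring subunit was not called. Hspe1 went from levels of 33740 and 25510 in WT GV to 15040 and 10560 in WT MII (-1.21 ± 0.46, adjusted p = 0.0286), and Hspd1 from 498.5 and 582.6 to 443.1 and 208.0 (-0.73 ± 0.50, adjusted p = 0.292). Neither pair of groups overlapped. Their ratio spread from 33.9 to 67.7 over the WT libraries with overlap between stages, so no unequal change of the 2 genes was detectable. Both genes have named pseudogenes (6 for Hspe1 and 5 for Hspd1) that could share reads with them, and the difference of Hspe1 was -0.29 (adjusted p = 0.423) on the TMM scale.

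J-domain genes, the largest group among the members tested (4 Dnaja, 10 Dnajb and 26 Dnajc), supplied 19 of the 28 members that fell. Over all genes tested, 30.5% were called lower. All 4 Dnaja genes were below 0 and 3 of them fell, with Dnaja3, the mitochondrial J-domain protein, at 670 and 738 counts in WT GV and 207 and 151 in WT MII (-2.95 ± 0.57, adjusted p = 2.49e-06). Dnaja2 (-1.43 ± 0.50, adjusted p = 0.0169) and Dnaja1 (-1.26 ± 0.48, adjusted p = 0.0312), the cytosolic cochaperones of HSPA8, fell less and were not called with TMM scaling (-0.47 and -0.38). Among 10 Dnajb genes tested, 4 fell. Dnajb1, the main partner of HSPA8 in disaggregation, had levels of 1693 and 1715 in GV and 745.7 and 425.8 in MII (-1.54 ± 0.49, adjusted p = 0.00690), and Dnajb11, a cochaperone of HSPA5 in the endoplasmic reticulum, 549.6 and 567.3 against 159.6 and 113.0 (-2.04 ± 0.52, adjusted p = 0.000656). Both genes had wholly separate groups, and Dnajb1 lost its call with TMM scaling (-0.64). Dnajb2 had 203 and 164 counts in GV and 16 and 55 in MII (-3.57 ± 0.73, adjusted p = 1.04e-05). Dnajb13, an axonemal protein known from sperm and ciliated cells, had 75 and 52 counts in WT GV and 0 in both GVBD and both MII libraries, which made it at least 42.3-fold lower at MII for a floor of 3 counts per library. Part of its exons (11.2%) overlap the antisense gene Ucp2. In contrast to these, Dnajb4, a cytosolic partner of HSP70 and the most abundant Dnajb gene, had levels of 10750 and 10690 in GV and 12670 and 8550 in MII (-0.02 ± 0.44, adjusted p = 0.987), and Dnajb6, a suppressor of protein aggregation, was not called at -0.56 ± 0.47 (adjusted p = 0.418).

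The Dnajc genes mostly encode proteins with specialised rather than general roles. Of 26 tested, 12 fell, where 30.5% of all genes were called lower. Dnajc15, a J-domain protein of the mitochondrial inner membrane, had the smallest adjusted p of all members. Its levels were 912.1 and 640.1 in WT GV and 28.1 and 30.7 in WT MII, a 26.4-fold fall (-4.72 ± 0.56, adjusted p = 4.42e-15). Dnajc19, another protein of the inner membrane import machinery, fell by 2.74 (SE 0.57, adjusted p = 1.40e-05), and Dnajc24, a cofactor of diphthamide synthesis, fell from 74 and 90 counts to 12 and 14 (-3.71 ± 0.94, adjusted p = 0.000574). Dnajc30, Dnajc14, Dnajc4, Dnajc5g, Dnajc18, Dnajc2, Dnajc17, Dnajc9 and Dnajc5b fell by 1.58 to 3.27 log2 units. Of these, Dnajc30 and Dnajc14 share 26.2% and 17.0% of their exon bases with antisense genes. At the other end, Dnajc8 had levels of 29620 and 22180 in GV and 33780 and 23060 in MII (0.13 ± 0.43, adjusted p = 0.870), and Dnajc3, an inhibitor of the kinases that shut down translation under stress, 935.9 and 897.8 against 1436 and 798.1 (0.29 ± 0.47, adjusted p = 0.724). Both genes had overlapping groups on the spike-in scale and were called higher on the TMM scale.

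The 7 cytosolic chaperonin subunits did not move as one unit. In WT, Cct3, Cct4, Tcp1 and Cct5 fell by 2.08 (SE 0.48, adjusted p = 0.000134), 1.82 (SE 0.57, adjusted p = 0.00634), 1.80 (SE 0.49, adjusted p = 0.00155) and 1.62 (SE 0.47, adjusted p = 0.00309) log2 units. With TMM scaling only Cct3 of these 4 was still called (-1.17), and Cct4 (-0.90), Tcp1 (-0.88) and Cct5 (-0.73) stayed below 0 but under the fold minimum. Cct7 (-1.12 ± 0.51, adjusted p = 0.0767) and Cct8 (-0.64 ± 0.47, adjusted p = 0.342) were not called. Cct2 had levels of 4469 and 3583 in WT GV and 4860 and 2554 in WT MII, which overlapped (-0.12 ± 0.47, adjusted p = 0.895), while Cct3 had 7409 and 5906 in GV and 1918 and 1232 in MII, which did not. The ratio of Cct2 to Cct3 mRNA per kilobase was 0.603 and 0.607 in the WT GV libraries, 0.678 and 0.586 at GVBD and 2.53 and 2.07 at MII. Within a library these ratios are free of the spike-in scaling, and the MII values lay far outside the GV and GVBD range. Cct2 and Cct3 were the least and the most changed of the 7 subunits in this fit, so the ratio of this pair is not a separate test. The Cct5 to Cct3 ratio was 1.14 and 1.38 in WT GV and 1.82 and 1.54 in WT MII. The Cct8 to Cct3 ratio was 0.286 and 0.398 in WT GV and 0.905 and 0.927 in WT MII.

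In KO oocytes the Cct2 to Cct3 ratio was 0.541 and 0.508 before maturation, then 0.432 and 0.567 in GVBD libraries and 0.955 and 0.668 in MII libraries. The KO MII values lay above the KO GV values and below both WT MII values. Genotype and the stage that KO oocytes had reached cannot be told apart in these values. Among 8 subunits including Cct6a, which the symbol rule did not take, Cct2 made up 18.0% and 15.7% of the summed level in WT GV and 37.0% and 34.4% by MII, and it made up 25.7% and 19.0% in KO MII. Per kilobase of the principal transcript, Cct5 was the highest subunit in all GV and GVBD libraries, Cct2 in both WT MII libraries and Cct3 in both KO MII libraries. Shares and ranks depend on the length used, which for Cct3 was 1977 bases in the principal transcript and 6370 over all annotated exons. Cct6a was the lowest in all 12 libraries. The highest subunit was 76.0 to 278 times the lowest in counts per kilobase, although the subunits assemble in equal number. Cct3 and Tcp1 have 1 named pseudogene each that could share reads, and pseudogenes of Cct6a were not searched. The genotype difference in single subunits at MII was not called for any of the 7.

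**Figure D3:**
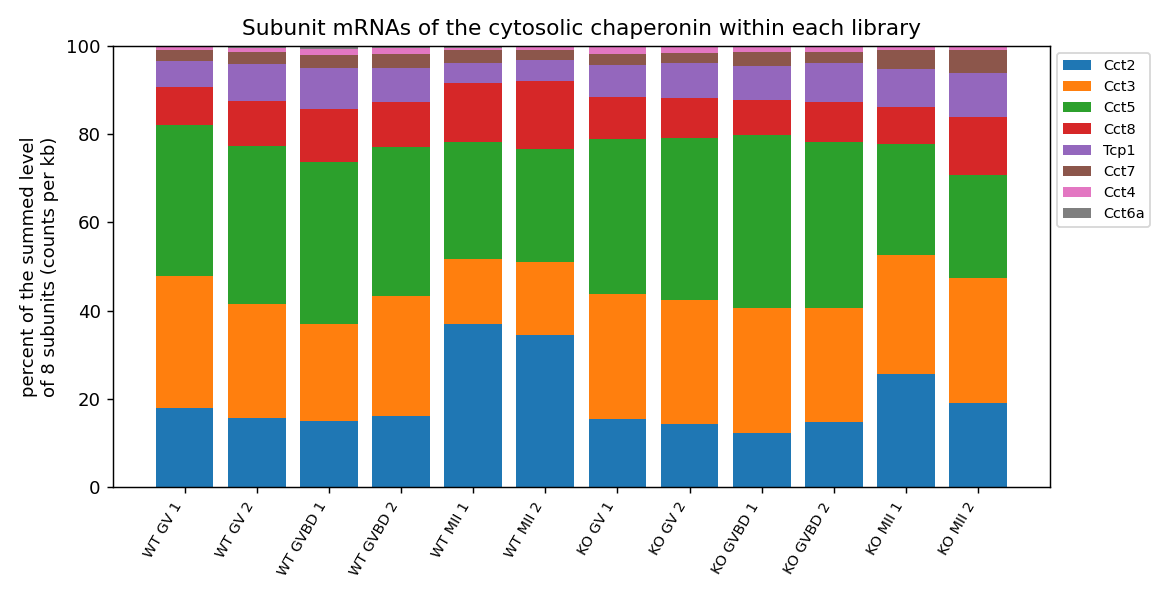
Share of each of 8 subunits in the summed mRNA level (counts per kilobase of the principal transcript) of the cytosolic chaperonin within each of the 12 libraries. Each bar is 1 library and sums to the whole. The Cct2 share is 12.2% to 18.0% in GV and GVBD libraries, 37.0% and 34.4% in the WT MII libraries, and 25.7% and 19.0% in the KO MII libraries.

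In KO oocytes only 2 of the 69 members tested were called from GV to MII, both lower (2.9%), where 3.28% of all 18777 genes were called. Dnajc15 had levels of 703.8 and 489.7 in KO GV and 58.3 and 13.4 in KO MII (-4.06 ± 0.84, adjusted p = 0.0413). Dnajc14, a chaperone of the endoplasmic reticulum, had 3503 and 3010 in GV and 449.2 and 181.9 in MII (-3.37 ± 0.65, adjusted p = 0.0366). Dnajc2, a ribosome-associated J-domain protein, came next at -2.34 ± 0.59 (adjusted p = 0.0562). The KO median was -1.42 against -1.17 for all genes. Of the 28 members that fell in WT, 27 were tested in KO, all 27 were below 0 and 22 were at least 1 log2 unit lower. These counts are not particular to those genes, since 64 of all 69 members tested were below 0. The median of all genes was itself more than 1 log2 unit lower. The count was 0 without either KO GV library, where 0.196% and 0.27% of all genes were called. It was 56 of 72 without KO MII replicate 1 (54.2% of all genes) and 26 of 71 without KO MII replicate 2 (16.9%). DESeq2 called 19 of 77 members and 11.3% of all genes. The difference between genotypes in the GV to MII change was tested directly and was called for 0 of 72 members (3 at an unadjusted p below 0.05, and 1 by DESeq2). It was also called for 0% of all 20807 genes, with 5.75% at an unadjusted p below 0.05 and 0.584% called by DESeq2. The 3 members with the lowest p in that test were Dnajb13 (adjusted p = 0.408), Hspb1 (-3.22 ± 1.02, adjusted p = 0.558) and Hspb7 (-5.91 ± 2.46, adjusted p = 0.781). Dnajb13 had 8 and 6 counts in KO GV, 48 and 8 in KO GVBD and 4 and 23 in KO MII, and was at 0 in no KO library.

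At the GV stage, before maturation, the absence of ALKBH5 was accompanied by no called member. The edgeR test called 0 of 71 members, where 0.0977% of all genes tested were called. An unadjusted p below 0.05 was found for 18 members (25.4%) and 17.9% of all genes, and DESeq2 called 4 of 77 members (5.19%) and 2.53% of all genes. The member median was 0.35 log2 units, close to the 0.36 of all genes. On the spike-in scale, 38 of the 71 (53.5%) had both KO libraries above both WT libraries, against 42.2% of all genes tested, and 8 (11.3%) had both below, against 9.69%. With TMM scaling, 34 of the 71 were above 0 and 37 below. Hspa5, which encodes BiP, had 2646 and 3073 counts in KO GV and 1870 and 1513 in WT GV (1.01 ± 0.19, adjusted p = 0.130), without overlap. Its level in KO then dropped to 551.2 and 359.4 at GVBD from 1312 and 1068 at GV, a difference of -1.39 ± 0.31 that missed the threshold (adjusted p = 0.274). In WT, Hspa5 levels were 604.2 and 581.1 at GV and 745.4 and 462.1 at GVBD. The ratio of Hspa8 to Hspa5 mRNA per kilobase was 17.0 and 18.0 in WT GV, 9.23 and 9.20 in KO GV and 21.8 and 27.7 in KO GVBD. Other genes of the endoplasmic reticulum were not called at GV either. Hsp90b1 was -0.49 ± 0.19 (adjusted p = 0.262), Dnajb11 0.19 ± 0.19 (adjusted p = 0.662), Dnajc3 0.28 ± 0.16 (adjusted p = 0.436) and Dnajb9 0.97 ± 0.41 (adjusted p = 0.294). Dnajc21, a factor of ribosome biogenesis, was 0.89 ± 0.18 (adjusted p = 0.141) and had no overlap between genotypes.

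Dnajc5g, a testis-enriched relative of the cysteine string protein, had lower counts in KO at every stage. It had 914 and 909 counts in WT GV and 268 and 456 in KO GV, 1261 and 1462 against 302 and 313 at GVBD, and 424 and 288 against 136 and 29 at MII. Genotypes did not overlap at any stage, although at MII the spike-in scaled levels nearly met, at 88.69 in WT and 86.97 in KO. Over all stages its difference was -1.53 ± 0.39 (adjusted p = 0.0705), which missed the threshold. The edgeR test over all stages called 0 of 74 members (15 at an unadjusted p below 0.05, and 2 by DESeq2), where 1.26% of all genes were called, 18.8% had such a p and 4.49% were called by DESeq2. Hspa14 (0.79 ± 0.23, adjusted p = 0.0994) and Dnaja2 (0.89 ± 0.27, adjusted p = 0.113) had the next lowest p, and the member median was 0.21 against 0.29 for all genes.

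At GVBD, edgeR called 0 of 72 members between genotypes (3 at an unadjusted p below 0.05, and 2 by DESeq2), where 2.54% of all genes were called, 14.9% had such a p and 3.09% were called by DESeq2. After Dnajc5g (-1.83 ± 0.54, adjusted p = 0.0786), the lowest p belonged to Hspa1b, the inducible HSP70 whose promoter is printed above. It had 141 and 77 counts in WT GVBD and 17 and 13 in KO GVBD (-2.61 ± 0.80, adjusted p = 0.0878), without overlap. In the other groups Hspa1b had 0 to 26 counts. The immediate early genes, which respond to handling, had 1081 summed counts in each WT GVBD library and 625 and 823 in the KO GVBD libraries. In the other groups, where Hspa1b was low, these unscaled sums were 743 to 1249, the highest in WT MII replicate 2. Of the 10 immediate early genes, 0 were called between genotypes at GVBD, and their part in the Hspa1b values was not tested. Hspa1a and Hspa1b transcripts are 84.9% identical over their alignment, so reads mapped uniquely may undercount both. Dnajc15 was -1.13 ± 0.52 (adjusted p = 0.311).

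From GV to GVBD, few genes of any kind were called. In WT, edgeR called 0 of 73 members (5 at an unadjusted p below 0.05, and 2 by DESeq2) and 0.0511% of all genes, of which 6.25% had such a p and DESeq2 called 1.34%. In KO, it called 0 of 70 members (2 at an unadjusted p below 0.05, and 1 by DESeq2) and 0.22% of all genes, with 7.65% at such a p and 0.821% called by DESeq2. Dnajb13 was at least 24.3-fold lower in WT GVBD than in WT GV for the same floor, with an adjusted p of 0.126. Dnajb2 had 203 and 164 counts in WT GV and 37 and 49 in WT GVBD (-2.34 ± 0.54, adjusted p = 0.265). Dnajc8 had levels of 13660 and 10720 in WT GVBD, against 29620 and 22180 at GV and 33780 and 23060 at MII (GVBD against GV -1.09 ± 0.35, adjusted p = 0.497), so that its GVBD values lay below both other stages. In KO the lowest p after Hspa5 were those of Dnajc15 (-0.97 ± 0.29, adjusted p = 0.461) and Hspb3 (-1.54 ± 0.71, adjusted p = 0.680). In WT GVBD the levels of Dnajc15, the member with the smallest adjusted p from GV to MII, were 841.7 and 488.0 and overlapped those of WT GV.

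At MII, 1 of 66 members was called between genotypes (1.52%), where 0.803% of all genes were called, and the member median was 0.06 against 0.30 for all genes. The called gene was Hspb7, a small heat shock protein of heart and skeletal muscle. Its MII counts were 143 and 93 for WT and 4 and 0 for KO (-5.36 ± 1.41, adjusted p = 0.0253). However, Hspb7 also had 0 counts in WT GV replicate 1 and in KO GVBD replicate 1, with 108 and 158 counts in the other library of each of those groups, so replicates of 1 group differed by as many counts as the genotypes at MII. It was not called with TMM scaling or without either WT MII library, and 0, 2 or 3 members were called at MII under other settings. Several heart muscle genes varied over the same libraries. Tnnt2, cardiac troponin T, had 4 counts in WT GV replicate 1, 0 in KO GVBD replicate 1 and 0 in both KO MII libraries, and 290 to 1007 counts in the other 8. In a list of 12 heart muscle genes, assembled after these values were seen, 4, 7, 7 and 6 genes were at 0 in these 4 libraries and none in the other 8. At MII, 8 of the 11 tested genes of that list were called lower in KO, against 0.302% of all genes tested. Because the list was assembled from these values, its counts describe them and are not a test. The summed counts of the list were 2492 to 34859 per library, and included Tnni3, which had 2036 to 34485 counts and was near 0 in none. Mb and Myl2 were lowest in the 4 libraries low in Tnnt2 but were not near 0 in all of them. They had 226 and 112 counts in WT GV replicate 1 and 255 and 137 in KO GVBD replicate 1. The part of non-oocyte RNA in the Hspb7 values was not tested.

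**Figure D4:**
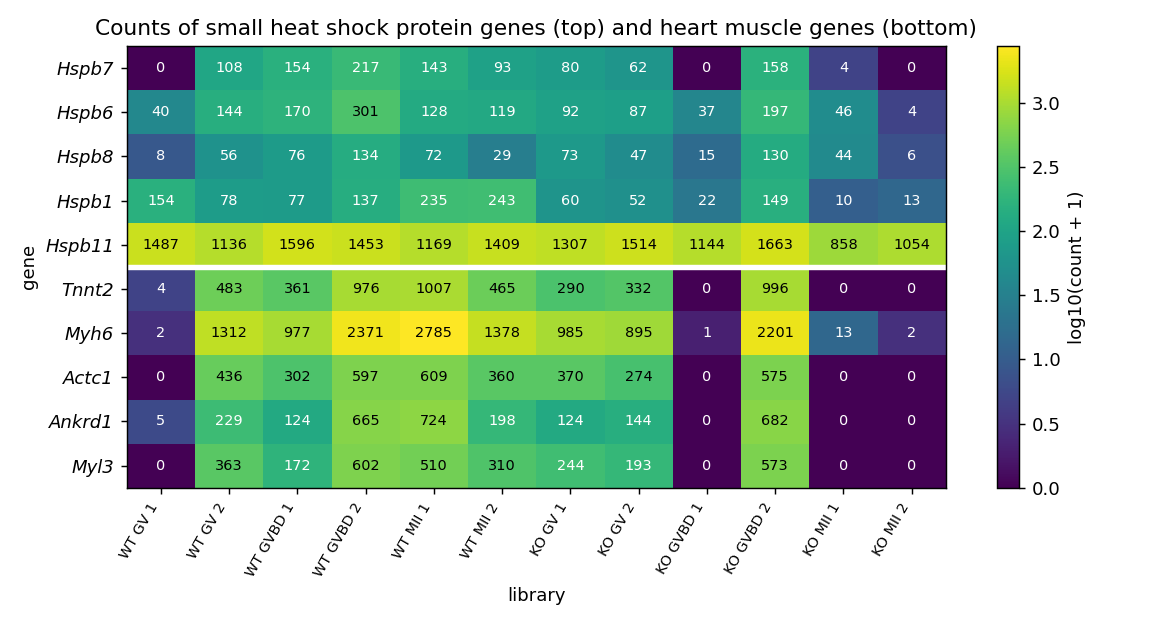
Counts of 5 small heat shock protein genes (above the white line) and 5 heart muscle genes (below it) in the 12 libraries, printed in each cell and coloured as log10(count + 1). Hspb7 and these 5 heart muscle genes, chosen from the list of 12, are at or near 0 in the same 4 libraries, WT GV 1, KO GVBD 1 and both KO MII libraries. Hspb11 has 858 to 1663 counts throughout.

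The other small heat shock protein genes were mixed. Hspb1, which encodes HSP27 and carries 2 short elements in the promoter printed above, had 235 and 243 counts at MII in WT against 10 and 13 in KO, a difference of -3.97 ± 1.16 that missed the threshold (adjusted p = 0.0688). On the spike-in scale, the KO MII levels of this gene (11.08 and 10.31) were below those of all other libraries. The WT MII levels were 207.6 and 129.7, and the second lay below WT GV replicate 1 (202.3) and KO GVBD replicate 2 (181.8). The 3 lowest libraries of Hspb1 (10 and 13 counts in KO MII and 22 in KO GVBD replicate 1) were among the 4 in which Tnnt2 was near 0. KO GVBD replicate 2 had 149 counts of Hspb1, and WT GV replicate 1, the remaining library of those 4, had 154. Hspb6 had 128 and 119 counts at MII in WT and 46 and 4 in KO (-1.71 ± 1.10, adjusted p = 0.927), and Hspb8 had 72 and 29 against 44 and 6 (-0.57 ± 1.21, adjusted p = 0.9999). At the earlier stages Hspb6 had 40 counts in WT GV replicate 1 and 37 in KO GVBD replicate 1, against 144 and 197 in the other library of each group, and Hspb8 had 8 and 15 against 56 and 130. The 4 lowest libraries of Hspb6 were the 4 low in Tnnt2, and the 3 lowest of Hspb8 were among them. The part of non-oocyte RNA in the Hspb1, Hspb6 and Hspb8 values was not tested. Hspb11, an intraflagellar transport protein in spite of its name, was the most abundant of this class and had a difference of 0.00 ± 0.85 between genotypes at MII. Hspb3, a muscle protein, fell in WT from 30 and 31 counts at GV to 0 and 2 at MII (-5.92 ± 1.54, adjusted p = 0.000771), the only called member of its class from GV to MII.

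Hspa8 had the third lowest p between genotypes at MII. Levels of 6415 and 3263 in the WT libraries stood against 3211 and 889.5 in the KO libraries, with a difference of -1.24 ± 0.73 (adjusted p = 0.871). Both KO libraries lay below both WT libraries, by a margin of 3211 against 3263 where the groups met. Within libraries, the ratio of Hsp90aa1 to Hspa8 mRNA per kilobase stood at 17.0 and 22.3 for WT and 32.7 and 61.5 for KO at MII, against 6.36 and 6.84 in KO GV. The Hspa8 to Hspa5 ratio was 12.8 and 12.1 for WT and 5.98 and 2.44 for KO. Both ratios separated the genotypes at MII without overlap, and here too genotype and the stage reached cannot be told apart. The difference of Hsp90aa1 at MII was -0.19 ± 0.49 (adjusted p = 0.9999). The KO MII libraries differed from each other in these ratios by more than the WT MII libraries did, and KO MII replicate 2 detected 67 members against 71 to 75 in the other 11 libraries.

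Genes that work with the members were counted from lists of cofactors. From GV to MII in WT, 5 of 10 tested HSP70 cofactors fell (Sil1, Bag1, Bag4, Grpel1 and Stub1), among them Grpel1, the nucleotide exchange factor of HSPA9, by 3.42 (SE 0.54, adjusted p = 4.15e-09). Of the mitochondrial protease and disaggregase genes, Lonp1, Clpp, Clpx and Clpb, 4 of 4 fell by 1.76 to 3.01 log2 units, and Clpb was the only gene of all cofactor lists called in KO over the same interval (-2.99 ± 0.71, adjusted p = 0.0499). Of 8 chaperonin and prefoldin genes, 3 fell (Pfdn6, Vbp1 and Pfdn5), with Pfdn6, a subunit of the complex that hands actin and tubulin to the chaperonin, at 3555 and 1824 counts in WT GV and 102 and 186 in WT MII (-5.31 ± 0.59, adjusted p = 3.47e-17). Hsf2 fell (-1.84 ± 0.74, adjusted p = 0.0409) and Hsf1, the main factor of the heat shock response, was not called. For comparison, 30.5% of all genes were called lower. All of these calls are on the spike-in scale, on which the WT median of all genes was itself -1.06 log2 units.

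The HSP90 cofactors moved both ways in WT. Cdc37, the kinase-specific cochaperone, fell by 2.16 (SE 0.63, adjusted p = 0.00351) and Fkbp4 by 1.86 (SE 0.62, adjusted p = 0.0115). Ptges3, which encodes p23, the cochaperone that closes the HSP90 clamp, had 87 and 111 counts in the WT GV libraries, 332 and 150 after GVBD and 2758 and 424 by MII. The difference from GV to MII was 3.21 ± 0.56 (adjusted p = 1.91e-07) and rested on the first MII library. It was 0.66 ± 0.48 (adjusted p = 0.351) without that library, and it was not called by DESeq2 or without WT GV replicate 1. The KO libraries held 105 and 220 counts of Ptges3 at GV, then 2508 and 3093 at GVBD, then 4142 and 499 at MII. It rose from GV to GVBD in KO (3.99 ± 0.34, adjusted p = 0.00237) and was higher in KO than in WT at GVBD (3.71 ± 0.63, adjusted p = 0.00198). The first of these calls was lost without either KO GV library (adjusted p = 0.183 and 0.102), and the second with TMM scaling (adjusted p = 0.0725) and without either WT GVBD library (adjusted p = 0.141 and 0.155). At GVBD the genotypes were wholly separate, whereas at MII both groups had 1 high and 1 low library. Ptges3 was the only gene of the cofactor lists called between genotypes at any stage.

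The members that fell were also compared by their 3′ ends, since the cytoplasmic polyadenylation element recruits the machinery that lengthens poly(A) tails in maturing oocytes and the libraries were primed on poly(A). The letters TTTTAT or TTTTAAT were searched in the last 100 bases of the principal transcript. They were present in 3 of the 28 members that fell in WT (10.7%; Hspb3, Dnajc2 and Dnajc9) and in 10 of the 44 not called (22.7%), among them Hsp90ab1, Dnajb4, Dnajc3 and Dnajc8. Over all genes tested with a transcript, the shares were 11.8% of 4003 genes called lower and 21.5% of 9887 not called, close to those of the members. A longer tail and a slower decay cannot be told apart in poly(A)-primed counts.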

How the data were processed

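Members and gene lists were chosen with earlier results of these data known. The authors deposited 1 table of raw read counts per gene for all 12 libraries, with ERCC sequences as rows. Per the submitters' processing notes, cutadapt 1.9, HISAT2 2.0.4 and StringTie 1.3.4d were used on mm10, with DESeq2 and edgeR. According to the study's methods, only uniquely mapped reads were kept, and pools of oocytes were lysed for SMART-seq with spike-in RNA. The extraction described in the labels (Trizol, microgram amounts of RNA) differs from this, and the study gives unequal pool sizes, so the preparation of these libraries is not certain. The replicates are named biological by the study. Nothing in the labels ties them to separate animals, so p-values measure the spread between pools.

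Deposited counts were matched to symbols by gene ID. Library sizes were replaced by ERCC totals, genes were filtered with filterByExpr on deposited library sizes, and each comparison was fitted on its own groups with edgeR 4.0.16 (glmQLFit, glmQLFTest; limma 3.58.1, R 4.3.3) over all genes. A call needed an adjusted p below 0.05 and an absolute log2 fold change of at least 1. Levels used the length of the principal coding transcript. Ratios within a library, promoter strings and 3′ strings were computed by script. Alternatives were TMM and median-of-ratios scaling, no filter, a filter on scaled sizes (added after seeing the data), DESeq2 1.42.0, a fit blocked on replicate number, and every library left out in turn. The fits were tested on simulated data before use.

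Genes named were a fixed set of anchor members, the members called in each comparison (at most the 5 highest and 5 lowest, or the 3 of lowest p where fewer than 3 were called), and the 10 with the highest level in WT GV. Other members named, such as Dnajc19, Dnajc30, Hspb6, Hspb8 and Hspb11, and the heart muscle list were chosen after their values were seen. Sequences were read from RefSeq tables of GRCm38.p6, the build of the counts.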

Additional observations from a re-analysis of the deposited data

How the results depend on the processing

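Of 47 gene results, 40 kept their direction under every alternative run, and of 513 alternatives of these results 407 left the call as it was, 49 lost it, 41 gained one and 16 turned the direction. With TMM and median-of-ratios scaling, the WT differences from GV to MII turned positive for Hspd1 (0.14 and 0.19), Cct2 (0.76 and 0.80), Cct8 (0.29 and 0.34) and Dnajb4 (0.91 and 0.96), since these scalings remove the shift of the median gene. Leaving out each library gave -0.045 to 0.59 for Hsp90ab1, -0.66 to 0.27 for Cct2, -0.17 to 0.38 for Dnajc8 (-0.06 without WT GV replicate 2) and -0.33 to 0.24 for Dnajb4 over the same interval, and -0.73 to 0.21 for Hsp90aa1 between genotypes at MII.

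Counts of called members moved as follows, and where no value shows the cause, the cause was not tested. Between genotypes at GV, 2 were called without the filter, 4 by DESeq2 and 0 to 1 with each library left out. At GVBD these counts were 2, 2 and 0 to 2. At MII, 0 were called with either other scaling, 2 by DESeq2 and 0 to 3 with each library left out. Over all stages, 1 was called with either scaling, 1 without the filter, 2 by DESeq2 and 0 to 2 with each library left out. From GV to GVBD, 1 was called without the filter in each genotype, 2 (WT) and 1 (KO) by DESeq2, and 0 to 2 with each library left out in either. From GV to MII, the leave-one-out range was 9 to 39 in WT and 0 to 56 in KO, where TMM and median-of-ratios gave 5 each, no filter 17, DESeq2 19 and the filter on scaled sizes 1. For the genotype difference in that change, no filter gave 2, DESeq2 1 and leaving out each library 0 to 1. With 1 library left in an arm, that library is assumed to vary like the other group.

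On the TMM scale, deviations of same-numbered libraries correlated at -0.24 (GV), 0.14 (GVBD) and -0.21 (MII) between genotypes, which showed no pairing by number. That scale removes shifts of a whole library. Replicate 1 had more endogenous counts per ERCC count than replicate 2 in every group. Pairing on the spike-in scale was therefore not excluded. With the replicate block, 0 members were called at MII, 2 over all stages, 1 from GV to GVBD in WT and 19 from GV to MII in KO. Crossing the numbers, chosen after seeing the data, gave 0 members at GV and 0 at MII. Depth limits the 7 untested members and the small heat shock protein genes, most of which had fewer than 300 counts.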
